A study of Mus musculus with 32 samples.

Results

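The comparison described here is glipizide against control diet in mouse liver: the 4 arrays of the GLIP group against the 4 arrays of the CON group, 8 of the 32 arrays in the series. All 12422 probe sets of the array other than its control probe sets were its members, and 7357 of them were bright enough on average to be tested. The samples were total RNA from the livers of male B6C3F1 mice, a first-generation hybrid strain, housed singly from 5 months of age. CON mice received 93 kcal per week of AIN-93M, a purified maintenance diet. GLIP mice received the control diet with glipizide mixed into it for the last 8 weeks of life. Both groups were fasted for 48 hours before they were killed at 22 months of age, so every level given here is that of an old, fasted liver, and as far as the labels say the groups differed by the drug alone. The further groups MET, GM and LTCR serve as points of comparison, of the same sex, strain, fast and age at death. MET mice ate the control diet with metformin for 8 weeks, and GM mice ate it with glipizide and metformin together. LTCR mice had 52.2 kcal per week of an enriched, restricted diet from 5 months of age. The remaining groups, CR8 (the restricted diet, reached in steps, at 52.2 kcal per week), ROS (the control diet with rosiglitazone) and SOY (the control diet with soy isoflavone extract), each for 8 weeks, enter the shared estimate of the spread and the ranking of group means. The dose of each drug is not given in the sources used here, so GM and GLIP are not known to be matched in dose. The labels describe 4 animals per group, and each value below comes from 1 array.

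Glipizide is a sulfonylurea. It closes the ATP-sensitive potassium channel of pancreatic beta cells by binding its regulatory subunit, Abcc8, and the depolarised cell releases insulin. In hepatocytes insulin represses the genes of glucose production (G6pc, Pck1) and Igfbp1, and induces lipogenic genes through Srebf1. The liver is also a secretory organ, and chaperones and disulfide isomerases of its endoplasmic reticulum fold plasma proteins before export. When unfolded protein accumulates there, the transcription factors Atf6 and Xbp1 induce those chaperones.

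Levels are array intensities on a linear scale, as the authors deposited them, with nearly the same trimmed mean on every array. Differences are on the log2 scale after a value of 27 was added to each intensity, which understates the difference of dim probe sets, and are given as GLIP minus the other group ± the standard error of a limma fit to all 32 arrays. A probe set was called where its p, adjusted over the 7357 by the Benjamini-Hochberg procedure, was below 0.05. The arrays of the 2 groups were alike as wholes: correlations of log2 values between a GLIP and a CON array were 0.957 to 0.973, against 0.960 to 0.973 within GLIP and 0.958 to 0.972 within CON. Both CON 3 and GLIP 3 stood apart in transcripts of other cells. In CON 3 the 20 matched skeletal muscle markers summed to 22946, against at most 4524.4 in the other CON arrays and 3125.1 to 4436.5 in GLIP. In GLIP 3 the 18 matched Kupffer cell and macrophage markers summed to 20853.5, against at most 9074.5 in the other GLIP arrays and 6258.9 to 7682.6 in CON. In whole liver, fewer cells of a type and less RNA per cell cannot be told apart. The part of either array's markers in a gene's difference was not tested beyond leaving the array out.

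**Figure D1:**
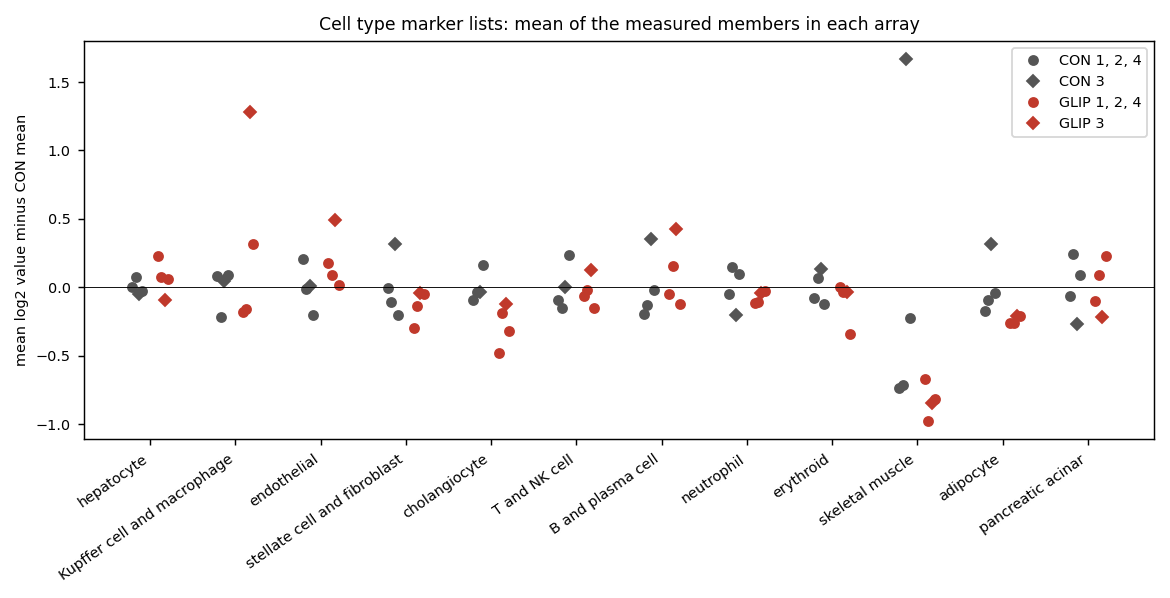
Mean log2 value of the measured members of 12 cell type marker lists in each CON array (grey) and GLIP array (red), relative to the CON mean of each member; diamonds are CON 3 and GLIP 3. CON 3 stands at 1.67 for skeletal muscle and GLIP 3 at 1.28 for Kupffer cells and macrophages. The hepatocyte list holds Trh, matched through a synonym, in place of Trf.

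Between GLIP and CON 10 probe sets were called, 9 higher and 1 lower in GLIP. They make up 0.136% of the 7357 tested (0.122% higher, 0.0136% lower), and 689 probe sets (9.37%) were below 0.05 before adjustment. The median difference over all probe sets tested was -0.003. In 400 probe sets, 5.44% of those tested, the 4 GLIP arrays did not overlap the 4 CON arrays, 240 of them with GLIP above. The 9 called probe sets with a gene name stand for Tbx3, Sdc4, Pdia4, Ugcg, Dnajc3, Cflar, Baz1b and Rnasek, which rose, and Tpmt, which fell. The tenth has no gene name in the annotation used here. Without GLIP 1, GLIP 2, GLIP 3 or GLIP 4 the number called was 1, 4, 5 or 2, and without CON 1, CON 2, CON 3 or CON 4 it was 8, 11, 6 or 2. Without CON 3 and GLIP 3 together 3 were called. They were Tbx3, Lgals3bp, an interferon-induced secreted glycoprotein (-0.77 ± 0.14, adjusted p = 0.0199, against 0.206 with all arrays), and a probe set without a gene name; only Tbx3 was among the 10. A fit to the GLIP and CON arrays alone called 9, of which 4 were among the 10 (Pdia4, Dnajc3, Cflar and Sdc4). Tbx3 (adjusted p = 0.0741) and Tpmt (0.115) were among the calls it lost, and Saa3, an acute phase gene, was among those it gained (0.00772, against 0.192 in the fit to all arrays).

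**Figure D2:**
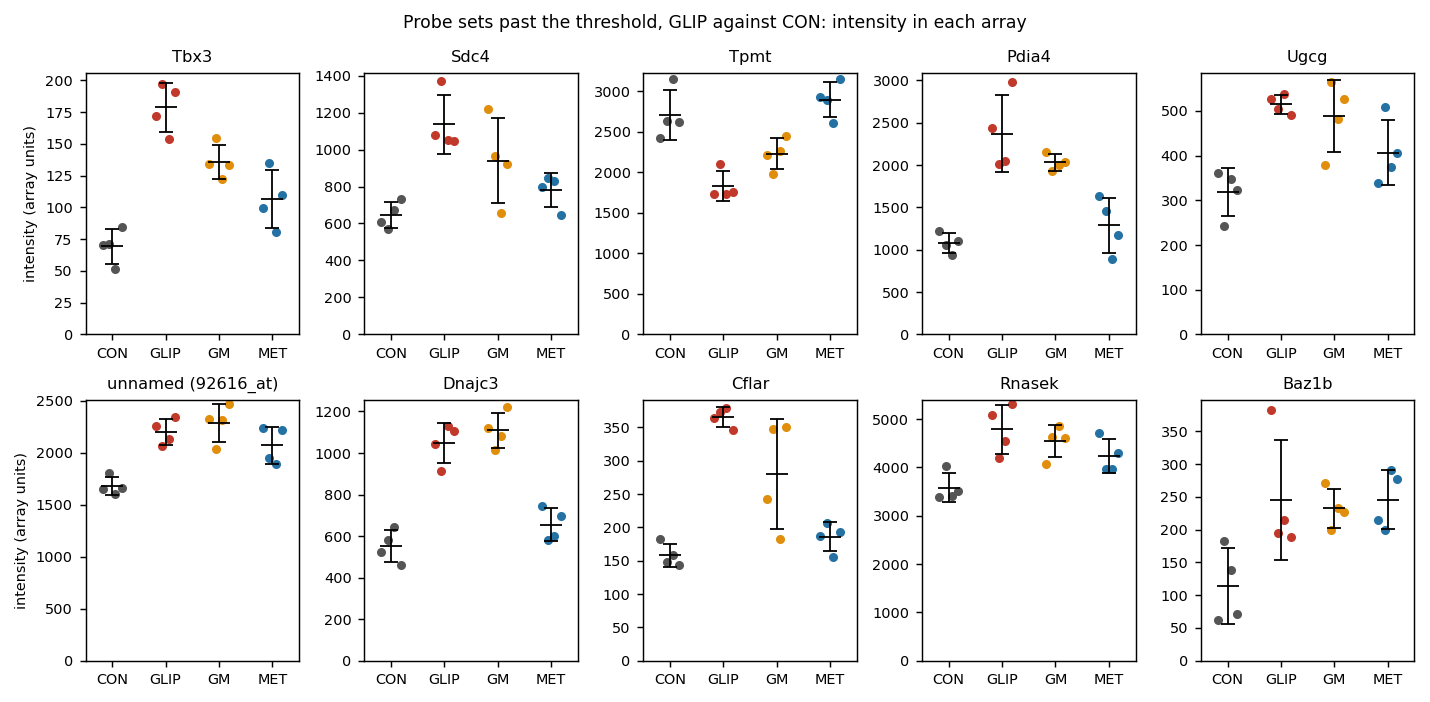
Intensity of the 10 called probe sets in each array of CON, GLIP, GM and MET, on linear axes that start at 0; bars show the mean and the SD of 4 arrays. GLIP and CON points do not overlap in any of the 10 panels; Tpmt is the one panel in which GLIP lies below CON.

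Tbx3, a T-box transcription factor that acts in liver development, had the smallest p of the comparison. Its intensity was 172.2, 197.4, 154.1 and 191.0 in the GLIP arrays and 70.2, 70.9, 51.5 and 84.4 in the CON arrays. Every GLIP array was well above every CON array. The difference was 1.10 ± 0.17 (limma adjusted p = 0.00217, n = 4 per group), and the call held in each of the 8 fits that left out 1 array, with adjusted p up to 0.0282. Among 21 tested transcription factors of hepatocytes, Tbx3 was the only one called. The median of that list was 0.19 (0.08 without CON 3 and GLIP 3), and 17 of 21 were above 0. Nr1h3, an oxysterol receptor, was at 0.22 ± 0.07 (adjusted p = 0.260) and Cebpa at 0.23 ± 0.10 (adjusted p = 0.453).

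Sdc4, a heparan sulfate proteoglycan of the cell surface, read 1077.6, 1372.5, 1051.2 and 1044.5 in GLIP and 607.0, 572.7, 673.0 and 734.9 in CON. The groups were far apart, and GLIP 2 was the highest array. The difference was 0.78 ± 0.14 (limma adjusted p = 0.0174). It missed the threshold without GLIP 1 or without GLIP 2, at an adjusted p of up to 0.0588. Ugcg makes glucosylceramide, the first step of glycosphingolipid synthesis. Its called probe set read 527.5, 504.5, 537.7 and 490.9 in GLIP and 361.6, 243.2, 346.9 and 323.3 in CON, a difference of 0.66 ± 0.13 (limma adjusted p = 0.0322). A second Ugcg probe set was dimmer, overlapped between the groups and differed by 0.23 ± 0.21 (adjusted p = 0.803). The call held without CON 1 and without CON 3, and adjusted p reached 0.119 without other arrays, 0.0606 with the replicate block and 0.124 in the fit to GLIP and CON alone.

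Cflar encodes c-FLIP, which blocks caspase-8 activation at death receptors. It read 364.5, 373.4, 378.4 and 345.9 in GLIP and 182.8, 148.6, 158.0 and 144.3 in CON. Both groups were tight and the lowest GLIP array was above the highest CON array. The difference was 1.09 ± 0.23 (limma adjusted p = 0.0429); no fit that left out 1 array kept it below 0.05 (adjusted p up to 0.164), nor did an added value of 1, no filter, the replicate block or no intensity trend (up to 0.0839). Of 24 tested apoptosis genes it was the only one called, and the median of that list was 0.02. Rnasek, an endoribonuclease, read 5078.9, 4206.0, 4555.2 and 5305.5 in GLIP against 3389.4, 4023.2, 3412.2 and 3511.3 in CON, a difference of 0.41 ± 0.09 (limma adjusted p = 0.0429). A second Rnasek probe set of the array is not described here. For the called one, GLIP 2 and CON 2 came close to each other. The call was kept without GLIP 2 and without CON 2, and adjusted p reached 0.271 without other arrays; it was also lost with median scaling, no filter, the replicate block, no intensity trend and in the fit to GLIP and CON alone (up to 0.251). The probe set without a gene name read 2260.5, 2063.4, 2132.2 and 2340.0 in GLIP and 1654.5, 1802.3, 1602.0 and 1657.9 in CON. It differed by 0.38 ± 0.08 (adjusted p = 0.0379) and kept its call without CON 2 alone; median scaling, the replicate block, no intensity trend and the fit to GLIP and CON alone also ended it (up to 0.163).

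Baz1b encodes a bromodomain protein of chromatin remodelling complexes. Its called probe set read 382.3, 195.0, 214.5 and 188.7 in GLIP and 62.3, 183.4, 139.0 and 71.0 in CON. GLIP 1 was far above the rest, and the lowest GLIP array was barely above the highest CON array. The difference was 0.99 ± 0.21 (limma adjusted p = 0.0429), and it kept its call without CON 2 and without CON 3, with adjusted p up to 0.249 otherwise. The call was also lost with median scaling, a larger added value, no filter, the replicate block, no intensity trend and in the fit to GLIP and CON alone, with adjusted p up to 0.365. The brighter Baz1b probe set overlapped between the groups and differed by 0.24 ± 0.13 (adjusted p = 0.617).

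Tpmt, the thiopurine S-methyltransferase, was the single probe set that fell. It read 1734.0, 2101.2, 1729.3 and 1762.1 in GLIP and 2421.2, 2627.9, 3146.4 and 2621.8 in CON. All GLIP arrays were below all CON arrays, with GLIP 2 the highest of its group and CON 3 the highest of the other. The difference was -0.55 ± 0.10 (limma adjusted p = 0.0174), and it missed the threshold without GLIP 1, GLIP 3, GLIP 4, CON 3 or CON 4, at an adjusted p of up to 0.0814, and with median scaling. Of 27 tested conjugating enzymes Tpmt was the only one called; the median of that list was -0.06. Gsta2, a glutathione S-transferase, was at -0.66 ± 0.29 (adjusted p = 0.466).

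Pdia4 and Dnajc3, both among the genes that rose, work in the endoplasmic reticulum. Pdia4 is a protein disulfide isomerase. Its intensity was 2442.5, 2011.4, 2046.8 and 2979.0 in GLIP and 1226.7, 1060.1, 937.5 and 1098.5 in CON. The lowest GLIP array was well above the highest CON array. The difference was 1.10 ± 0.21 (limma adjusted p = 0.0174), and it missed the threshold without GLIP 1, GLIP 4, CON 3 or CON 4, at an adjusted p of up to 0.128. Dnajc3 is a co-chaperone of Hspa5 that also restrains the kinase Eif2ak3. Its called probe set read 1042.8, 915.7, 1128.5 and 1108.2 in GLIP and 523.5, 583.0, 643.4 and 462.3 in CON, a difference of 0.90 ± 0.18 (limma adjusted p = 0.0382). The groups were wide apart, yet the call was kept without CON 3 alone, with adjusted p up to 0.164 without another array; it was also lost with no filter, the replicate block and no intensity trend (up to 0.0638). The brightest Dnajc3 probe set did not overlap either, at 0.41 ± 0.15 (adjusted p = 0.345), and a dimmer one overlapped, at 0.20 ± 0.20 (adjusted p = 0.833). A further Dnajc3 probe set of the array is not described here.

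The promoters of these 2 genes, of Creld2, which had the next largest difference among the tested endoplasmic reticulum genes, and of Hspa5, the best known chaperone of that compartment, are shown because the endoplasmic reticulum stress element that Atf6 binds consists of CCAAT and CCACG with 9 bases between them. The sequences run 5′ to 3′ along each gene's strand, from 250 bases before to 50 bases after the annotated start, and were taken from RefSeq (GRCm38.p6). Capitals mark every CCAAT and CCACG on either strand (ATTGG and CGTGG on the other).
Dnajc3, chr14:118937682-118937981, plus strand: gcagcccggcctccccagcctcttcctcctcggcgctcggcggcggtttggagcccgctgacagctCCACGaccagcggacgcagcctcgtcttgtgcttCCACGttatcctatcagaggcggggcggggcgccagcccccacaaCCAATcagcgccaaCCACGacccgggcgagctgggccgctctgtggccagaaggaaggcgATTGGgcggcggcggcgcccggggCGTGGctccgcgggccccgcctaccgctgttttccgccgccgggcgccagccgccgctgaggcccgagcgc
Pdia4, chr6:47813463-47813762, minus strand: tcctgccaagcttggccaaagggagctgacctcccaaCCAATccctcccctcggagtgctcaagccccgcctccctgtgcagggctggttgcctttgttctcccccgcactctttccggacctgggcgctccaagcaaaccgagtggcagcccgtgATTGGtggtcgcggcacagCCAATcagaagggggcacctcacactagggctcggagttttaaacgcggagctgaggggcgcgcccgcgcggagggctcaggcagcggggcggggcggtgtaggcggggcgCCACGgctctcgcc
Creld2, chr15:88819396-88819695, plus strand: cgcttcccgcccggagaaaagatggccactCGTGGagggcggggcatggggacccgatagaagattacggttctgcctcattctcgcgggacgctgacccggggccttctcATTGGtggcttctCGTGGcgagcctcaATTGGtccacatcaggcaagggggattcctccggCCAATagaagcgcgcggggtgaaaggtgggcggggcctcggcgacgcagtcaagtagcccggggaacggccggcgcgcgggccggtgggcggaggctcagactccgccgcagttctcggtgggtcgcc
Hspa5, chr2:34771840-34772139, plus strand: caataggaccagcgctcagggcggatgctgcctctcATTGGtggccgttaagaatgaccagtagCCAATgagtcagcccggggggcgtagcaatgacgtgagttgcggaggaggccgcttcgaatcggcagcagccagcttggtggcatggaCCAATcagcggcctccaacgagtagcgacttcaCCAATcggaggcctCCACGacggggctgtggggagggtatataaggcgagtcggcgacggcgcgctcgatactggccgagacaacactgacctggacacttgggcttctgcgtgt
The spaced pair of motifs begins 105 bases before the start in Dnajc3, 126 in Creld2 (on the other strand) and 65 in Hspa5, and these letters are not in this window of Pdia4, which holds CCAAT 3 times and CCACG 1 time. Over all 32851 promoters of the table, 39 (0.119%) hold the spaced pair on either strand, 37.4% hold CCAAT alone or in a pair, and 32.8% hold CCACG. Of 24 tested endoplasmic reticulum genes with a promoter in the table, 7 hold the pair: Canx, Creld2, Dnajc3, Ero1b, Hsp90b1, Hspa5 and Pdia6. A match of letters is a description and says nothing of binding in these livers.

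Of 39 listed chaperone and stress genes of the endoplasmic reticulum 29 were tested, each through its brightest probe set. Of the 29 only Pdia4 was called, against 0.136% of all probe sets; Dnajc3 counts here through its brightest probe set, which was not. The median of the list was 0.20, beside -0.003 over all probe sets, and 22 of 29 were above 0; without CON 3 and GLIP 3 the median was 0.16. Next to Pdia4 came Creld2 and Manf, small proteins secreted under endoplasmic reticulum stress. Creld2 read 771.6, 422.7, 526.3 and 982.8 in GLIP and 341.4, 425.6, 390.3 and 435.8 in CON (0.66 ± 0.22, limma adjusted p = 0.293). GLIP 4 and GLIP 1 were high and GLIP 2 was inside the CON range. Hspa5 (BiP), the main lumenal chaperone, read 7621.1, 6056.8, 6903.2 and 9391.6 in GLIP and 5840.0, 5957.5, 5280.5 and 5493.4 in CON (0.39 ± 0.15, adjusted p = 0.362). The groups did not overlap, with GLIP 2 again closest to CON and GLIP 4 the highest. The lowest values of the list were those of Trib3, a pseudokinase induced by stress (-0.61 ± 0.33, adjusted p = 0.595), and the transcription factor Ddit3 (-0.27 ± 0.51, adjusted p = 0.930).

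**Figure D3:**
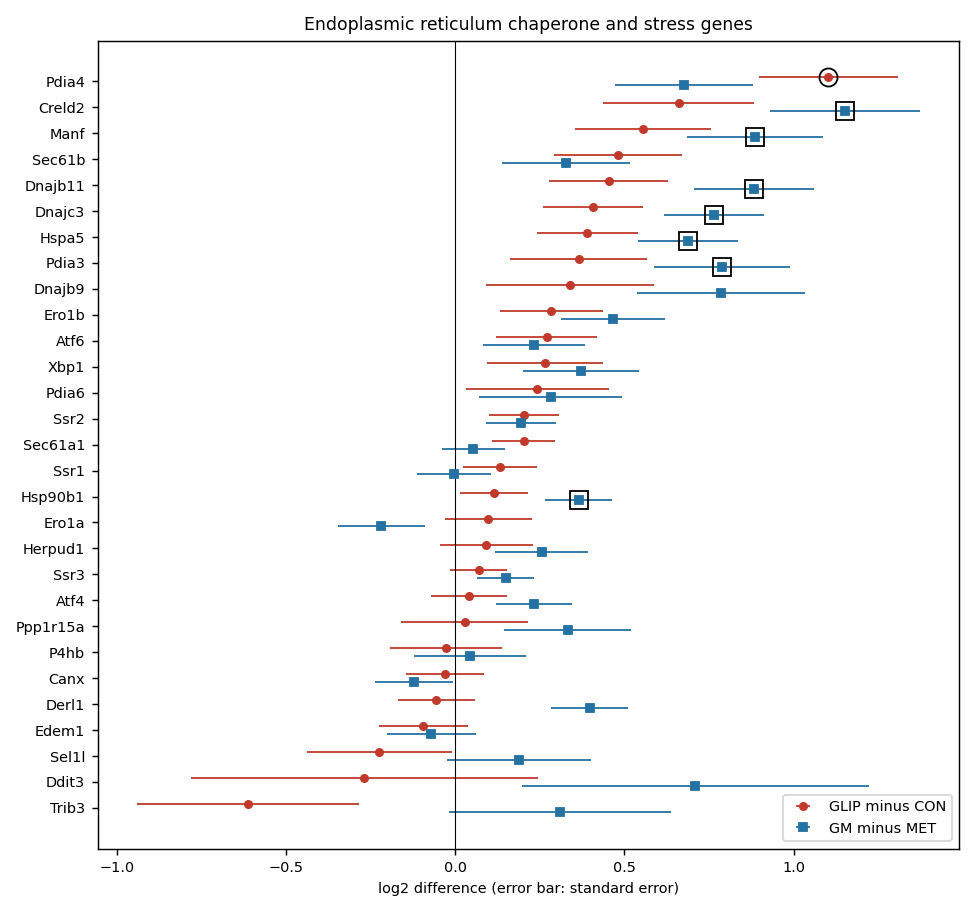
Log2 difference, with its standard error, of the 29 tested endoplasmic reticulum genes for GLIP minus CON (red circles) and GM minus MET (blue squares); ringed points were called. In GLIP minus CON the one ringed point is Pdia4 at 1.10; in GM minus MET 7 points are ringed.

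GM against MET gave a look at glipizide in mice that share no array with GLIP or CON, since both groups ate metformin and GM ate glipizide as well. It was added after the called genes were known, and the metformin doses of the 2 groups are not known to be matched. Of all probe sets tested 193 were called (2.62%), 96 higher in GM (1.3%) and 97 lower (1.32%); with arrays scaled to a common median the split was 182 to 58, and a fit to those 8 arrays alone called 0, with 1018 below 0.05 before adjustment. Of the 10 probe sets called in GLIP against CON, 9 differed in the same direction and 2 were called. Dnajc3 read 1119.5, 1015.6, 1083.2 and 1219.7 in GM and 745.9, 579.5, 598.4 and 695.5 in MET, a difference of 0.74 ± 0.18 (limma adjusted p = 0.0246). Tpmt read 2219.4, 1980.1, 2264.9 and 2443.6 in GM and 2934.7, 2896.1, 2611.8 and 3148.0 in MET, a difference of -0.38 ± 0.10 (limma adjusted p = 0.0409). The 2 groups did not overlap for either gene, as was so for 630 of the 7357 probe sets tested. Pdia4 did not overlap either, with a lowest GM array of 1928.7 and a highest MET array of 1631.7, and differed by 0.68 ± 0.21 (adjusted p = 0.0708). Tbx3 was at 0.30 ± 0.17 (adjusted p = 0.348), Sdc4 at 0.24 ± 0.14 (adjusted p = 0.393) and Cflar at 0.50 ± 0.23 (adjusted p = 0.251). Baz1b was the one of opposite sign, at -0.06 ± 0.21; with arrays scaled to a common median it was at 0.002.

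In GM against MET 7 of the 29 endoplasmic reticulum genes were called, all higher in GM, against 1.3% of all probe sets in that direction. They were Creld2 (1.15 ± 0.22), Manf (0.89 ± 0.20), Dnajb11, Pdia3, Dnajc3, Hspa5 and Hsp90b1. The MET mice themselves were low in some of these. Hspa5 averaged 4024.6 ± 357 (SD, n = 4) in MET and 5642.9 ± 312 in CON, and Pdia3 averaged 951 ± 121 in MET and 1743.2 ± 278 in CON.

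The difference between the 2 effects, GLIP minus CON against GM minus MET, was tested directly. It called 3 probe sets (0.0408% of those tested), and none of the 10 called in GLIP against CON was among them. Pklr, the liver pyruvate kinase, read 473.5, 348.1, 506.8 and 535.5 in GLIP against 336.9, 258.0, 269.3 and 260.7 in CON through the dimmer of its probe sets, and 415.7, 346.3, 371.7 and 433.8 in GM against 1403.5, 877.4, 481.5 and 811.8 in MET. GLIP lay above CON and GM lay below MET, and the effects differed by 1.71 ± 0.30 (limma adjusted p = 0.0116). The brighter Pklr probe set overlapped in both comparisons, at 0.22 ± 0.13 and -0.49 ± 0.13, and its effects differed by 0.71 ± 0.19 (adjusted p = 0.143), which was not called. Srebf1, the transcription factor that drives lipogenic genes, was at 0.11 ± 0.13 in GLIP minus CON and -0.93 ± 0.13 in GM minus MET, and the effects differed by 1.04 ± 0.18 (adjusted p = 0.0116). Srebf1 averaged 2541.9 ± 238.8 (SD, n = 4) in CON, 2743.6 ± 307.5 in GLIP, 2007.4 ± 122.3 in GM and 3902.3 ± 757.4 in MET. Nmt1, an N-myristoyltransferase, was at -0.18 ± 0.07 and 0.39 ± 0.07, a difference of -0.57 ± 0.10 (adjusted p = 0.0116). In the fit to those 16 arrays alone adjusted p was 0.0836 for Pklr, 0.068 for Srebf1 and 0.111 for Nmt1, and with median scaling it was 0.0537 for both Pklr and Srebf1. Tbx3, with effects of 1.10 and 0.30, had an adjusted p of 0.195 for the difference.

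Genes of insulin action showed no called change in GLIP against CON. Of 20 chosen genes 15 had a probe set of their own, and 14 were tested; the insulin receptor Insr was too dim. Irs2, the insulin receptor substrate whose transcription insulin represses in liver, read 326.8, 253.3, 104.4 and 104.8 in GLIP and 51.5, 68.1, 30.6 and 23.9 in CON. The groups did not overlap, but GLIP 1 and GLIP 2 were far above GLIP 3 and GLIP 4, and CON intensities were near the added value of 27. The difference was 1.57 ± 0.40 (limma adjusted p = 0.162). Through each gene's brightest probe set, the other 13 lay between -0.59 (Thrsp) and 0.33 (Ppara), with adjusted p of 0.480 or more. The dimmer Pklr probe set was at 0.67 ± 0.21, without overlap (limma adjusted p = 0.263). G6pc, the glucose-6-phosphatase of glucose output, read 2869.1, 3556.3, 1925.7 and 3430.1 in GLIP and 2648.3, 2608.8, 3272.9 and 3783.5 in CON, fully mixed (-0.08 ± 0.26, adjusted p = 0.963). Pck1, the gluconeogenic carboxykinase, was at -0.24 ± 0.14 (adjusted p = 0.677), Igfbp1 at -0.28 ± 0.35 (adjusted p = 0.878) and Fasn, the fatty acid synthase, at 0.17 ± 0.22 (adjusted p = 0.877). G6pc was at 0.14 and Igfbp1 at 0.04 without CON 3 and GLIP 3. Scd1, the stearoyl-CoA desaturase, read 8616.7, 18256.0, 13614.4 and 14595.6 in GLIP and 24666.3, 24059.7, 27850.7 and 22165.6 in CON through one probe set, without overlap (-0.89 ± 0.28, adjusted p = 0.263), and overlapped through its brightest one (-0.34 ± 0.15, adjusted p = 0.480). A further Scd1 probe set of the array is not described here. Of the drug's own channel, Abcc8 was below the filter (42.7 to 105.8 in GLIP, 65.0 to 124.2 in CON), and Kcnj11, the pore subunit, read 79.6, 358.2, 76.9 and 177.7 in GLIP and 70.9 to 97.3 in CON (0.65 ± 0.37, adjusted p = 0.629), with GLIP 2 and GLIP 4 above the CON range and the others inside it.

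**Figure D4:**
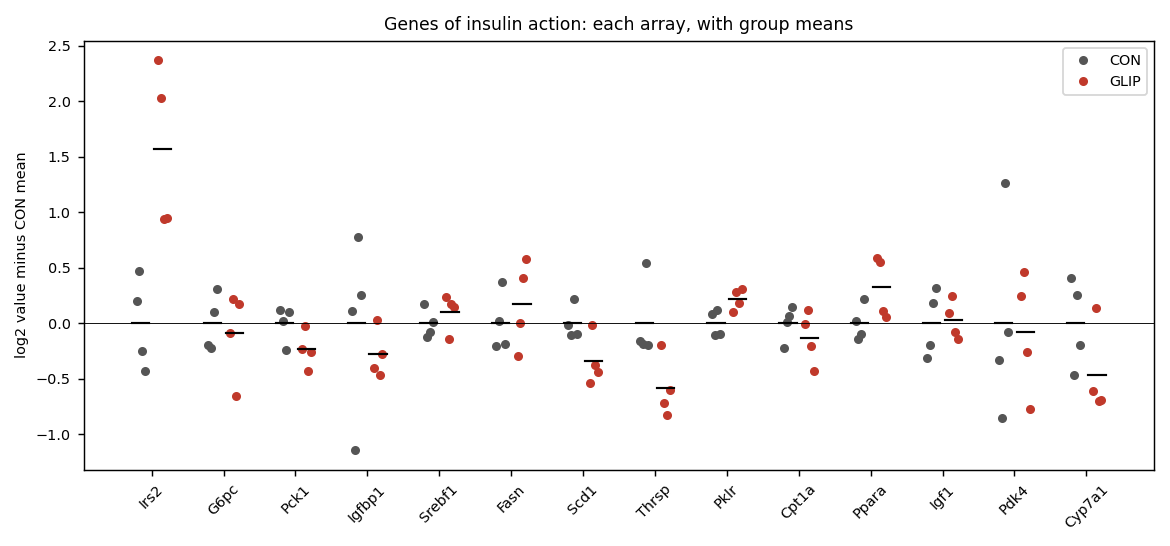
Log2 value of 14 genes of insulin action in each CON (grey) and GLIP (red) array, relative to the CON mean of the gene; short lines are group means. Each gene is shown through its brightest probe set. Through these, Irs2 is the one gene of the 14 whose GLIP and CON arrays do not overlap, at a mean difference of 1.57.

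Among 34 pathway lists, 4 held a called gene: those of Pdia4, Tbx3, Cflar and Tpmt. List medians ran from -0.15 for fatty acid oxidation and ketogenesis to 0.20 for the endoplasmic reticulum list. Of 30 fatty acid oxidation genes 0 were called and 4 were above 0; 5 were lower and 0 higher at p below 0.05 before adjustment, where 9.37% of all probe sets lay in either direction. Cyp4a12b, an omega-hydroxylase, read 1782.7, 4435.6, 5467.2 and 3538.2 in GLIP and 7263.0, 8454.2, 6162.3 and 6150.4 in CON (-0.98 ± 0.30, limma adjusted p = 0.251). GLIP 1 was the lowest and no array overlapped. Over the whole list the low arrays were GLIP 3 and GLIP 4, with means of -0.446 and -0.445 relative to CON, whereas GLIP 2 was at 0.168. Without CON 3 and GLIP 3 the median of the list was -0.10. Of 36 cytosolic and mitochondrial chaperones 0 were called, with a median of 0.15. Bag3, an Hsp70 co-chaperone, read 886.2, 631.2, 647.1 and 675.5 in GLIP and 471.1, 438.0, 425.2 and 403.0 in CON, without overlap, and narrowly missed the threshold (0.67 ± 0.15, adjusted p = 0.0884). The genes next to it were Rabac1, a Golgi trafficking protein (0.41 ± 0.09, adjusted p = 0.0884), and Slc27a4, a fatty acid transporter (0.64 ± 0.15, adjusted p = 0.0929).

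Of 28 interferon-induced genes 0 were called in the limma fit; 8 were lower and 0 higher at p below 0.05 before adjustment, beside 9.37% of all probe sets in either direction, and the median was -0.14. Ifit1, an antiviral RNA-binding protein, read 113.5, 154.8, 243.4 and 149.1 in GLIP and 418.6, 576.4, 298.6 and 492.9 in CON (-1.31 ± 0.34, limma adjusted p = 0.162). The highest GLIP array, GLIP 3, and the lowest CON array, CON 3, were those that stood apart in macrophage and muscle transcripts. Without both, the median of the list was -0.35, 0 of 28 were called, and Ifit3, a partner of Ifit1, went from -0.82 (adjusted p = 0.212) to -1.18 (adjusted p = 0.0595). Among 28 acute phase genes 0 were called and 22 were above 0. Saa3, a serum amyloid of the acute phase, read 516.6, 613.9, 536.2 and 719.5 in GLIP and 234.8, 275.6, 200.4 and 209.3 in CON, without overlap (1.28 ± 0.35, adjusted p = 0.192). Cyp1a2, a xenobiotic oxidase, read 5795.5, 8000.7, 7867.5 and 6807.0 in GLIP and 3965.0, 4706.1, 2593.4 and 4398.8 in CON (0.88 ± 0.25, adjusted p = 0.206), also without overlap. These values describe genes that did not pass the test, in a comparison in which 5.44% of probe sets did not overlap.

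**Figure D5:**
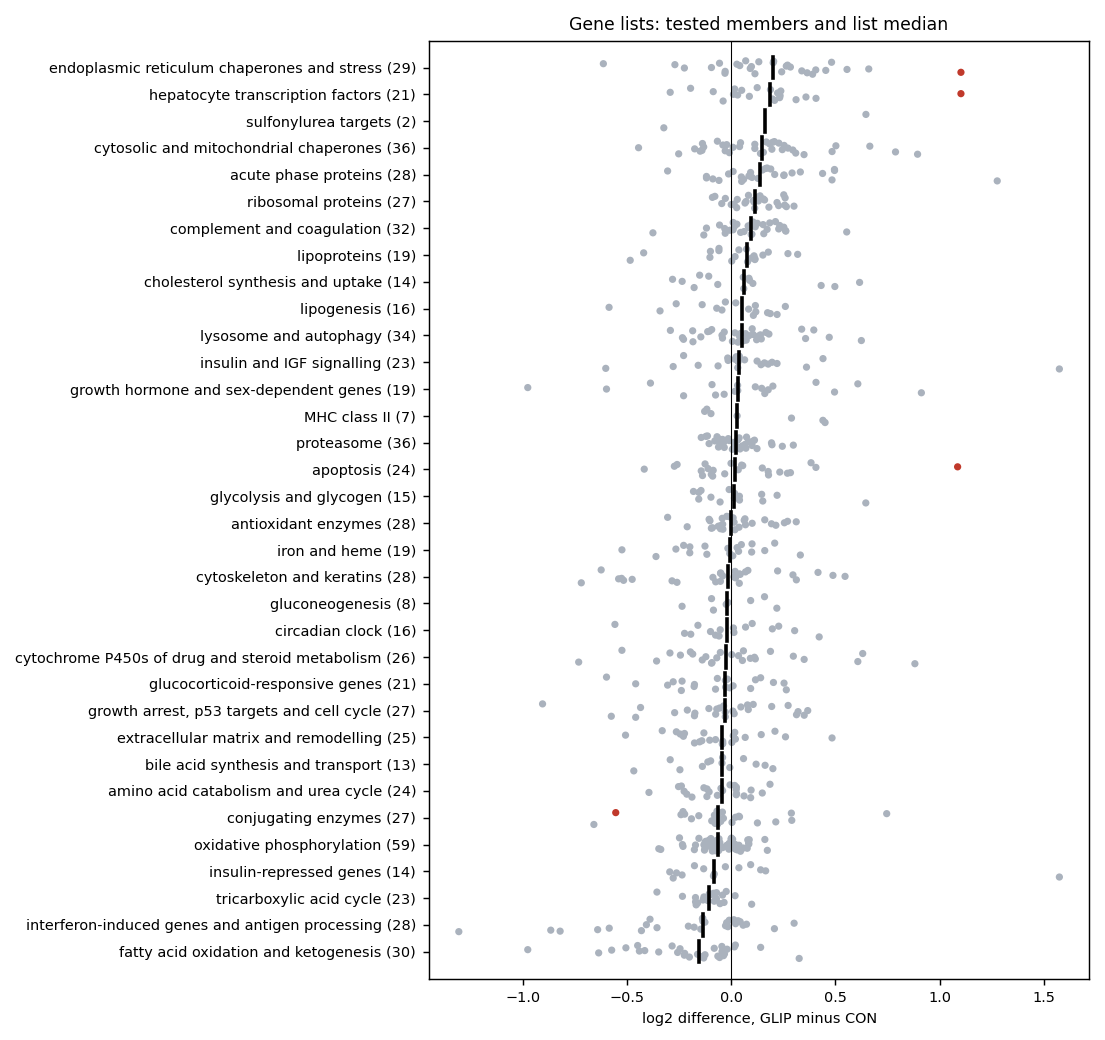
Log2 difference, GLIP minus CON, of each tested member of 34 pathway lists (points; number tested in brackets), with list medians as black bars; the 4 red points are called genes. Medians run from -0.15 for fatty acid oxidation to 0.20 for endoplasmic reticulum chaperones.

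Marker lists of other cell types were compared by their mean per array with a two-sided exact permutation test over the 8 arrays, whose smallest possible p is 0.0286. With 12 lists, a single list cannot pass 0.05 after adjustment even where the groups separate fully, so no call was possible for one list alone; adjusted p was 0.172 or more. Cholangiocyte markers were lower in GLIP by that smallest p, at -0.28 ± 0.16 (SD, n = 4) relative to CON (SD 0.11), with the list mean of all 4 GLIP arrays below that of every CON array. The 7 matched members summed to 3069.3 to 4726.4 in GLIP and 4720.1 to 6113.4 in CON, the ranges touching, with 3 members in GLIP and 2 in CON under 27 in every array. Only 3 members were bright enough to be tested one by one. Krt18 and Krt8, keratins that hepatocytes also express, were at -0.54 ± 0.17 (limma adjusted p = 0.259) and -0.47 ± 0.16 (adjusted p = 0.293). Cftr was at -0.45 ± 0.22 (adjusted p = 0.520). Adipocyte markers were at -0.24 ± 0.03, with the same p, and at -0.137 without CON 3 and GLIP 3. CON 3 stood at 0.317 for them and the other CON arrays at -0.176 to -0.0442. Of their 6 matched members, 2 in CON and 1 in GLIP were under 27 in every array. Macrophage markers were at 0.31 ± 0.68, and at 0.007 without CON 3 and GLIP 3: C1qa read 2481.0 in GLIP 3 and 485.5 to 931.8 in the other 7 arrays. The part of these markers in any gene's difference was not tested.

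Against MET, GLIP differed in 281 probe sets (3.82%), 164 higher (2.23%) and 117 lower (1.59%); with arrays scaled to a common median the split was 52 to 120, and a fit to the 8 arrays alone called 26. The called genes of lipid synthesis were all lower in GLIP: 7 of 16 lipogenic genes and 4 of 14 cholesterol genes, against 1.59% of all probe sets. Relative to CON, the mean of the lipogenic list was 1.04, 0.527, 0.124 and 0.536 in the MET arrays and -0.0748 to 0.0638 in GLIP. For the cholesterol list it was 1.21, 0.633, 0.215 and 0.906 in MET and -0.183 to 0.43 in GLIP. In GLIP against CON 0 genes of either list were called, with medians of 0.053 and 0.0592. Fdps, the farnesyl diphosphate synthase, averaged 1069.9 ± 435 (SD, n = 4) in GLIP and 4279.0 ± 3133.9 in MET (-1.74 ± 0.46, limma adjusted p = 0.0296), and Thrsp, a lipogenic regulator, 632 ± 135 and 2614.1 ± 1855.6 (-1.68 ± 0.37, adjusted p = 0.0109). Both overlapped between the groups, and the MET arrays were spread widely. Without GLIP 3, GLIP 4, MET 2 or MET 4 the number called was 115, 89, 169 or 126. Cyp7a1, the rate-limiting enzyme of bile acid synthesis, was at -1.39 ± 0.38, the sterol dehydrogenase Nsdhl at -1.30 ± 0.25 and Scd1 at -1.13 ± 0.28. Through its brightest probe set Scd1 was at -0.60 ± 0.15. In the other direction 10 of 29 endoplasmic reticulum genes were higher in GLIP, against 2.23%, with Pdia3 at 1.21 ± 0.20 (adjusted p = 0.00118), Manf at 1.13 ± 0.20 and Creld2 at 1.12 ± 0.22. Saa3 (2.03 ± 0.35) and the receptor Nrp1 (1.21 ± 0.27) complete the 5 largest. Of 59 oxidative phosphorylation genes 10 were lower. Of the 10 probe sets called against CON, 6 were called here too: Tbx3 (0.64 ± 0.17), Sdc4, Pdia4, Cflar and Dnajc3, all higher, and Tpmt (-0.66 ± 0.10, adjusted p = 0.00075), lower. GLIP arrays enter both comparisons.

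GLIP against GM gave 0 called probe sets (0%) in the limma fit, with 675 below 0.05 before adjustment. GM mice ate metformin as well, and the glipizide doses of the 2 groups are not known to be matched. Scaling arrays to a common median moved the median of all differences from 0.04 to -0.08 and called 1. Of the genes called against CON, the largest differences were Cflar at 0.39 ± 0.23 (adjusted p = 0.643) and Tbx3 at 0.34 ± 0.17 (adjusted p = 0.548). Dnajc3 averaged 1048.8 ± 96.0 (SD, n = 4) in GLIP and 1109.5 ± 85.2 in GM.

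LTCR, whose mice had eaten less for most of their lives, was farther from GLIP: 1407 probe sets were called (19.1%), 879 higher in GLIP (11.9%) and 528 lower (7.18%). Genes of glucose output were lower in GLIP than in LTCR, 5 of 8 gluconeogenic genes. Relative to CON, the mean of the gluconeogenic list was 0.495 to 0.86 in the LTCR arrays and 0.0237 to 0.169 in GLIP. G6pc averaged 2945.3 ± 742.5 (SD, n = 4) in GLIP, 8233.8 ± 1508.1 in LTCR and 3078.4 ± 559.9 in CON. Between GLIP and LTCR it differed by -1.50 ± 0.26 (limma adjusted p = 0.000156), and Igfbp1 by -1.42 ± 0.35. The regulator Zbtb16 (-2.35 ± 0.41), the acyl-CoA thioesterase Acot1 (-1.93 ± 0.49), Tmem129 (-1.68 ± 0.38) and the chromatin assembly subunit Chaf1b (-1.51 ± 0.37) were the other largest falls. Interferon-induced genes were higher in GLIP than in LTCR in 20 of 28, among them Isg15 (2.38 ± 0.20). Relative to CON, the mean of that list was -1.31 to -1.09 in LTCR and -0.401, -0.394, 0.192 and -0.324 in GLIP. Endoplasmic reticulum genes were higher in GLIP than in LTCR in 15 of 29, with 2 lower. Relative to CON, their list mean was -0.384 to -0.192 in LTCR and -0.0162 to 0.292 in GLIP. The 5 largest differences with GLIP above LTCR were the chemokine Cxcl1 (3.12 ± 0.51), the sulfotransferase Sult2a2 (2.92 ± 0.93), the serpin Serpina12 (2.86 ± 0.39), the siderophore-binding Lcn2 (2.82 ± 0.93) and the stress gene Gadd45a (2.75 ± 0.24). Pdia4 showed the widest gap of the genes called against CON, at 2369.9 ± 451 in GLIP and 570 ± 196 in LTCR (2.04 ± 0.21, adjusted p = 7.65e-08). Tbx3 did not follow, at 179 ± 19.6 in GLIP and 149 ± 24.8 in LTCR (0.23 ± 0.17, adjusted p = 0.349). Over all 8 groups, GLIP held the highest mean of the 8 groups for 5 of the 9 probe sets that rose (Tbx3, Sdc4, Pdia4, Cflar and Rnasek) and the lowest for Tpmt, while Ugcg was highest in ROS, the rosiglitazone diet, at 573, and Baz1b in LTCR, at 298. CON held the lowest mean for Tbx3, Sdc4, Dnajc3, Baz1b, Rnasek and the probe set without a gene name. For Pdia4 and Ugcg the lowest was LTCR, and for Cflar it was CR8. These probe sets were called from the same GLIP and CON arrays, so the ranks of GLIP and CON follow in part from that choice. Relative to CON, Tbx3 was at 1.10 in GLIP, 0.872 in LTCR, 0.778 in CR8, 0.767 in GM, 0.758 in ROS, 0.465 in MET and 0.253 in SOY.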

How the data were processed

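Liver RNA of 32 mice, 4 in each of 8 diet groups, had been measured on Affymetrix MG-U74Av2 arrays. The authors deposited 1 linear intensity per probe set and array (0.1 to 47323.7); the software and the background correction are not given in the sources used here. The mean of each deposited intensity column without the top and bottom 2% was 500.4 to 500.5, so no further scaling was done. The 66 control probe sets were left out. Intensities plus 27 (their 20th percentile) were put on the log2 scale, and 7357 probe sets whose mean log2 value exceeded that of an intensity of 94.2 (the 40th percentile) entered the limma fit (limma 3.58.1, under R 4.3.3): lmFit with a mean for each of 8 groups over 32 arrays (24 residual degrees of freedom), then eBayes with an intensity trend and Benjamini-Hochberg adjustment at 0.05. The number of arrays limits the precision; no detection calls were used.

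Of the 12422 probe sets, 10833 had 1 symbol in the platform annotation, 396 several and 1193 none. Lists were read through each gene's brightest probe set. Listed names without a probe set of their own were matched through a unique synonym. By this step Trh entered the hepatocyte markers in place of Trf, and Pigq entered the glycolysis and glycogen list. Named genes were the called genes, those with the 12 smallest p-values, the insulin genes, list members, and the 5 largest called differences each way for MET and LTCR; other names were chosen after their values were seen. Members and lists were chosen with earlier results of these data known. GM against MET and its contrast with GLIP against CON were added after the files were seen. Tested on simulated data for GLIP against CON (7291 probe sets), the fit recovered 47.8% of changes of 0.5, 85.1% of 1 and 97% of 2 on the log2 scale. The simulation changed 67, 67 and 66 probe sets at those sizes, in normal noise independent between probe sets. It held no outlying array and no shift shared by genes, so the real comparison may recover less. Alternatives were other scalings, added values, filters, no trend, a fit to the groups compared, a replicate block and leaving out each array. Python 3.11.15 and scipy 1.17.1 were used for the permutation tests.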

Additional observations from a re-analysis of the deposited data

Results flagged for a closer look

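In each group of 4 arrays, the gap between the highest or lowest array and its neighbour was compared with Dixon's critical value for the genes and lists of GLIP and CON: 15 of 206 groups passed (7.28%), and chance alone flags about 1 in 20. GLIP 3 was the outlying array in 6. Its means relative to CON were 1.13 for MHC class II (-0.23 to -0.08 in the other GLIP arrays), 0.192 for interferon-induced genes (-0.40 to -0.32) and 0.204 for lysosome and autophagy genes (-0.03 to 0.008), and it read 2372.9 for Gsta2 (1681.2 to 1734.7), 198.3 for Lss (322.7 to 341.1) and 11367.1 for Cebpa (12204.4 to 12266.3). GLIP 1 was high for acute phase proteins at 0.416 (0.06 to 0.12) and for insulin and IGF signalling at 0.236 (0.05 to 0.07). GLIP 2 was the highest GLIP array for Sdc4 at 1372.5 and Tpmt at 2101.2, and GLIP 4 was low for erythroid markers at -0.344. Among CON arrays, CON 3 was high for Thrsp at 1396.7 (823.6 to 845.2), CON 1 for the dimmer Pklr probe set at 336.9 and CON 4 for Rpl19 at 6684.9, and CON 2 was low for macrophage markers at -0.216. GLIP minus CON and GM minus MET differed for the dimmer Pklr probe set by 1.71, Nmt1 by -0.57 and Srebf1 by 1.04 on the log2 scale, by the limma test of the difference. The fit to the groups compared called 0.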

How the results depend on the processing

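In GLIP against CON 10 probe sets were called; 6 remained with median scaling and 6 without the filter, 5 without the intensity trend, and 1 (without GLIP 1) to 11 (without CON 2) were called with 1 array left out. The fit to the groups compared called 9, sharing 4 with the 10. Without CON 3 and GLIP 3, an alternative chosen after seeing the data, 3 were called. The deviations of same-numbered GLIP and CON arrays correlated at -0.014, -0.079, 0.14 and -0.036, and the replicate block called 4. Arrays of unequal number were not compared, so whether equal replicate numbers mark pairs is not settled. GLIP against MET gave 281, but 172 with median scaling, 26 in the fit to the groups compared, 121 without CON 3 and GLIP 3, and 89 (without GLIP 4) to 307 (without GLIP 1) with 1 array left out. GLIP against GM gave 0, but 1 with median scaling and 0 to 2 (without GM 2) with 1 array left out. GM against MET gave 193, but 0 in the fit to the groups compared and 94 (without GM 3) to 226 (without MET 1) with 1 array left out. The test of the 2 glipizide effects gave 3, but 12 with quantile normalization, 1 with median scaling, 10 with the added value at the 40th percentile, 8 with the filter at the 60th percentile, 6 with the replicate block, 0 in the fit to the groups compared (571 before adjustment), 18 without CON 3 and GLIP 3, and 3 to 23 (without MET 3) with 1 array left out. The cause of these shifts was not tested. The count for GLIP against LTCR stayed within 1.5 times of 1407 under every alternative run, at 984 to 1486 with 1 array left out. Of 2524 single-gene alternatives 2289 kept direction and call, 208 lost the call, 9 gained it and 18 reversed, all 18 of differences that were not called. G6pc (GLIP minus CON) was at 0.14 and Igfbp1 at 0.042 without CON 3 and GLIP 3, and G6pc ran from -0.19 to 0.10 with 1 array left out. In GLIP minus GM, median scaling gave -0.032 for Ugcg, -0.055 for Rnasek and -0.093 for Baz1b, quantile normalization -0.065 for Baz1b, and leaving out 1 array -0.022 to 0.16 for Ugcg and -0.19 to 0.11 for Baz1b. Baz1b ran from -0.25 to 0.054 in GLIP minus MET and from -0.14 to 0.018 in GM minus MET with 1 array left out, and was at 0.0023 in GM minus MET with median scaling. The 4 arrays a group and intensities near 27 limit what can be seen.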
